A study of Drosophila melanogaster with 37 samples.

Results

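The deposited annotation of transcription units contained 1338 units that held a single gene with a non-coding CR symbol and overlapped no annotated unit on the other strand. They were chosen as units on X, 2L, 2R, 3L, 3R or 4 whose gene field gave exactly 1 symbol of the form CR plus a number, and which overlapped no unit on the other strand by 1 bp or more. These members made up 8.44% of the 15848 units of these 6 arms, out of 15991 units in all. The 6 arms carried 2248 single-gene CR units, so 59.5% met the rule and 910 were removed for overlap. A further 61 single-gene CR units lay on the Y and were not members. The choice used the symbol, the arm and the positions of other units and no measured transcription.

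The study profiled RNA polymerase II in sorted male and female stage 15 Drosophila melanogaster embryos by mNET-seq, in which polymerase is immunoprecipitated and the nascent RNA bound to it is sequenced. Its 37 samples formed 12 groups of 2 to 4, with 14 samples of total polymerase, 15 of the form phosphorylated at serine 5 and 8 of the form phosphorylated at serine 2 of the C-terminal domain. In each sex a maternal knockdown of mof by RNAi was set against a control RNAi. The Gal4 driver and the control hairpin were not given in the sources used here, and each preparation pooled 6000 embryos. Coverage per sample was not analysed here, so the depth is unknown and nothing below describes transcription in these embryos or a difference between knockdown and control, males and females or polymerase forms. All values describe annotated intervals of the dm6 genome. Members were chosen so that no annotated unit overlapped them on the opposite strand, and polymerase signal over them was not tested.

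In FlyBase, the prefix CR marks an annotated gene without a known protein product, in contrast to CG for a protein-coding gene. Most such genes are long non-coding RNAs or pseudogenes, which are decayed or inactive copies of other genes. Many long non-coding RNA genes of animals start head to head with a protein-coding gene, from a shared stretch of DNA between both starts, while others stand alone between genes. Non-coding RNAs that carry a name of their own, such as the dosage compensation RNAs roX1 and roX2, have no CR symbol and are therefore not members.

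The units of a genome are a complete list and not replicates, so counts, shares and medians are given without a test. Starts are the outermost annotated starts of genes and were not measured here. In RefSeq's gene table for this assembly 1334 of the 1338 genes were found, and 1305 of these (97.8%) had the same start and end as in RefSeq. RefSeq classed 1186 members (88.6%) as long non-coding RNAs, 141 (10.5%) as pseudogenes and 7 as protein-coding. Both strands held members in similar numbers, with 692 plus-strand and 646 minus-strand units, and 0 overlapped any other unit. For comparison, 7335 of 11918 single-gene protein-coding units of the 6 arms (61.5%) overlapped no unit on the other strand, a share close to the 59.5% of the CR units.

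At the edge of the overlap rule, members and removed units were separated by single bases. CR43983 (FBgn0264715, 2R:21762995-21763994), CR45200 (4:776475-777146) and the pair CR45401 and CR45402 touched a unit on the other strand with 0 bp between them and were kept. CR43482 (3L:9386112-9386463), which shared 1 bp with CR43483, and the pair CR44455 and CR44456 on 2R, which shared 1 bp with each other, were removed. Such cases were few. An other-strand unit lay within 10 bp of 13 members, and 10 of the 910 removed units overlapped by at most 10 bp. Of the removed units, 564 (62.0%) were covered whole, and the median overlap was 719 bp.

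The members were short. Their median length was 632.5 bp (interquartile range 433 to 954, n = 1338 units), against 839 bp (537 to 1500, n = 910) for the CR units removed for overlap and 2009 bp (1099.5 to 4269.5, n = 7335) for protein-coding units without overlap. Lengths of at least 500 and under 1000 bp were found for 582 members (43.5%), and 1025 (76.6%) in all measured under 1000 bp, compared with 21.5% of the protein-coding units. At the other end, 22 members (1.64%) exceeded 5000 bp, against 1584 protein-coding units (21.6%). A single transcript was annotated for 1203 members (89.9%), for 85.4% of the removed CR units and for 51.8% of the protein-coding units. Length went up with the number of transcripts, from a median of 601 bp for members with 1 transcript to 1007 bp for the 117 with 2 and 1648 bp for the 17 with 3.

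**Figure D1:**
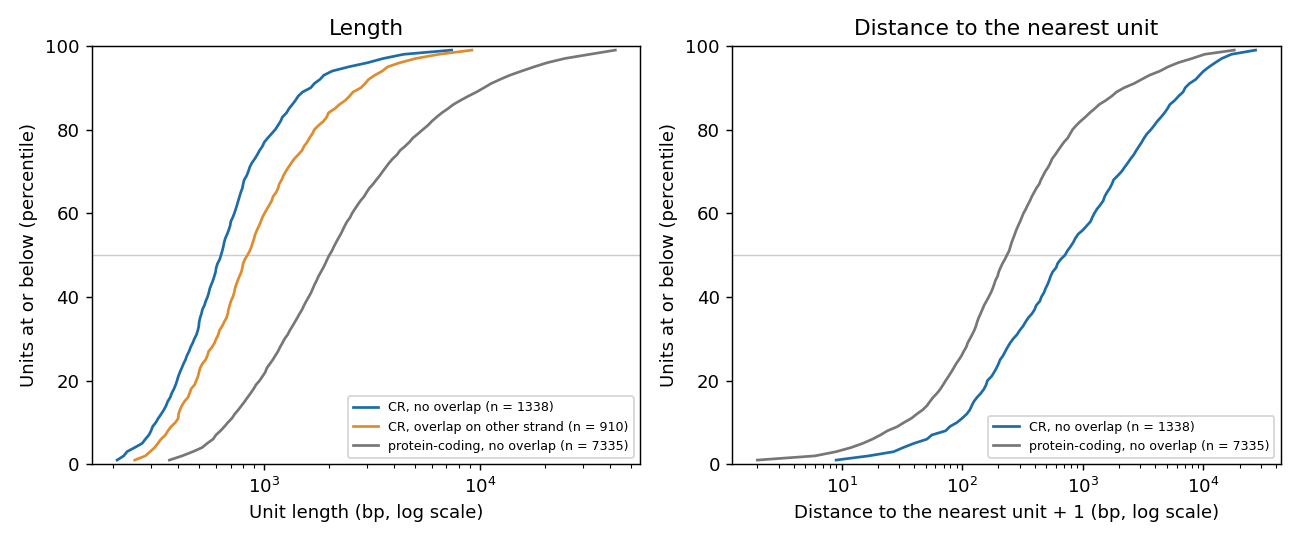
Length in bp (left) and distance in bp plus 1 to the nearest unit on either strand (right), both on log axes, against the percentage of units at or below each value. The curve of CR units without overlap lies to the left of the protein-coding curve for length, with medians of 632.5 and 2009 bp, and to its right for distance, with medians of 711.5 and 234 bp. CR units with overlap are left out on the right because their distance is 0.

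The longest member was CR31386 (FBgn0051386), a long non-coding RNA gene of 36194 bp on the minus strand of 3R (3R:11269415-11305608) with 1 annotated transcript. Its upstream neighbour was another non-coding gene, lncRNA:TS25, 2060 bp away on the same strand, and its downstream neighbour at 13291 bp was the member CR43283 (3R:11247631-11256123, 8493 bp). RefSeq lists CR43283 as lncRNA:cherub, a non-coding RNA known from brain tumours that arise from neural stem cells. CR32111 (FBgn0052111, 3L:12627934-12648280, plus strand, 20347 bp) followed 6135 bp downstream of caup, a homeobox gene of the Iroquois complex, on the same strand. CR41320 (3L:26165235-26178793, plus strand, 13559 bp), a pseudogene, lay 37021 bp from its nearest unit, CG40160.

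The longest members of the X, 2R and 2L each lay within 500 bp of another unit. Other long members of 2R and 2L varied: CR45231 on 2R lay 250 bp from its nearest unit, and CR44603 on 2L lay 4476 bp from its own. On the X, CR44754 (X:16901767-16912724, minus strand, 10958 bp) faced the start of CG4928 at 455 bp. CR45232 on 2R (2R:16297449-16306695, minus strand, 9247 bp) lay between Nox, which encodes an NADPH oxidase and whose start faced it at 573 bp, and the autophagy gene Atg9, whose end was 216 bp from its own. The longest member of 2L, CR31781 (2L:16869346-16878300, plus strand, 8955 bp), had 6 transcripts, the highest number among the members, and ended 25 bp from the end of CG32832. On chromosome 4 the longest member was the pseudogene CR32010 (4:12640-25054, minus strand, 12415 bp), 874 bp from another pseudogene, CR32011.

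The shortest member was the pseudogene CR43240 (2L:22131026-22131127, minus strand), with 102 bp. Its start faced, at 93 bp, the start of a merged unit of CR43241, CG42748 and dunk. It was the only member below 200 bp. CR45515 on the X (X:4775033-4775232) and CR45368 on 2L (2L:15834218-15834417) measured exactly 200 bp, and 102 members measured at least 200 and under 300 bp.

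Among the arms, 2L stood out in the number of members. 2L held 389 members, or 16.6 per Mb up to the end of its last unit, while 3L had 278 (9.92 per Mb), 2R 209 (8.28), 3R 263 (8.20), X 187 (8.03) and chromosome 4 had 12 (9.44). Protein-coding units without overlap spread over the 5 large arms more evenly, from 49.6 per Mb on the X to 60.1 on 2L. Members formed 12.3% of the units of 2L and 6.45% to 8.91% of those of the other large arms. The surplus of 2L came with more CR units in all (580, against 306 to 484 on the other large arms), and 67.1% of them were without overlap, compared with 55.3% to 61.1% on the other large arms and 44.4% of the 27 on chromosome 4. Members of 3L were the shortest, with a median of 567.5 bp, followed by those of 2L (583 bp), X (651 bp), 2R (695 bp) and 3R (717 bp). The 12 members of chromosome 4 had a median of 1235 bp.

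**Figure D2:**
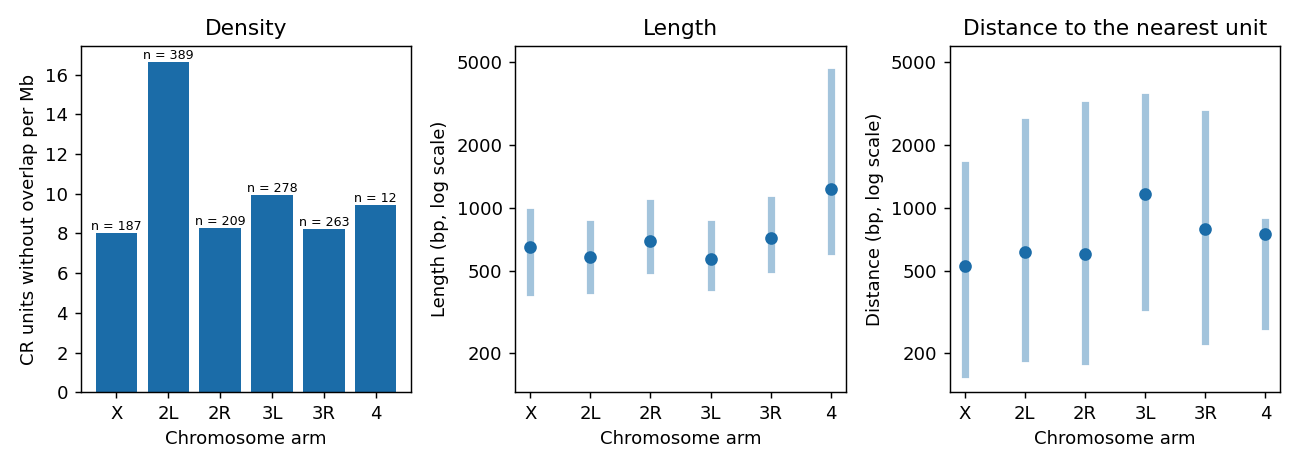
Number of CR units without overlap per Mb by arm (left, with the count above each bar), and their length (middle) and distance to the nearest unit (right) in bp on log axes, with points at the median and bars from the lower to the upper quartile over units. 2L stands out in density at 16.6 per Mb, 3L has the largest median distance at 1161.5 bp, and chromosome 4 has the largest median length with 12 units.

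Within arms the members were gathered in some stretches. The window of 1 Mb with the most members was 15 to 16 Mb of 2L, where 32 of 124 units (25.8%) were members. On the same arm, 27 of 93 units (29.0%) between 17 and 18 Mb and 28 of 106 between 14 and 15 Mb were members. Outside 2L, the highest counts were 27 of 160 units at 20 to 21 Mb of 2R, and on 3L 23 of 84 (27.4%) at 10 to 11 Mb and 23 of 134 at 6 to 7 Mb. The median window held 16 members on 2L, and 6 to 8.5 on the other large arms.

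On the X, the chromosome targeted by dosage compensation in males, members had a median length of 651 bp and a median distance to the nearest unit of 525 bp. Members of 2L, 2R, 3L and 3R together had medians of 625 bp and 773 bp. Protein-coding units without overlap measured 2425 bp on the X and 1925 bp on these 4 arms, with distances of 237 and 232 bp. Pseudogenes took a larger share of the members on the X, 41 of 187 (21.9%), than on 2L (7.97%), 2R (12.9%), 3L (7.55%) or 3R (6.84%). They were 3 of the 12 members on chromosome 4. Many of the X pseudogenes stood in local series. The 7 from CR43217 to CR43211 are described below. Others lay from CR32821 to CR43384 (X:19910168-19953882), among the units CG45486 to CG45494. A further series, from CR33491 to CR33498 (X:20178755-20225979), alternated with units including Sdic1 to Sdic4 and measured 843 to 847 bp. The X values for pseudogene share and distance include all of these series. Neither was computed without them.

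At the median, pseudogene members lay closer to other units than long non-coding RNA members did. Their median distance to the nearest unit was 202 bp (n = 141), against 796.5 bp (n = 1186), and on the same strand 542 against 2776.5 bp. The pseudogenes include the local X series named above, in one of which units stood 202 bp apart. Medians without these series were not computed. The median lengths of pseudogenes and long non-coding RNAs were similar, 684 and 629 bp. Members with a facing start within 500 bp made up 9.93% of the pseudogenes and 14.5% of the long non-coding RNAs. Pseudogenes were also found among the most remote members: 13 of 141 (9.22%) had no other unit within 10 kb, compared with 71 of 1186 (5.99%) long non-coding RNAs.

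A run of 7 neighbouring pseudogenes stood on the X. Between nod, which encodes a kinesin-like protein of meiotic chromosome segregation, and rho-4, of the rhomboid intramembrane protease family, lay CR43217, CR43216, CR43215, CR43214, CR43213, CR43212 and CR43211 in this order, all on the plus strand and with no other unit among them. CR43217 (FBgn0262853, X:11586228-11586944) measured 717 bp and started 477 bp after nod. The 6 units after it, from CR43216 (FBgn0262852, X:11587283-11589173) to CR43211 (FBgn0262847, X:11597748-11599638), each measured 1891 bp. Their starts were spaced by 2093 bp in all 5 intervals, with 202 bp between units, so the annotation repeats with a fixed period. The run spanned 13411 bp, ended 199 bp before rho-4, and began 5795 bp downstream of roX2, an RNA of the dosage compensation complex. On all arms 7 members measured 1891 bp, and the one outside the run was CR46204 (2L:17450494-17452384), classed as a long non-coding RNA. The likeness of the copies in sequence was not analysed here.

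**Figure D3:**
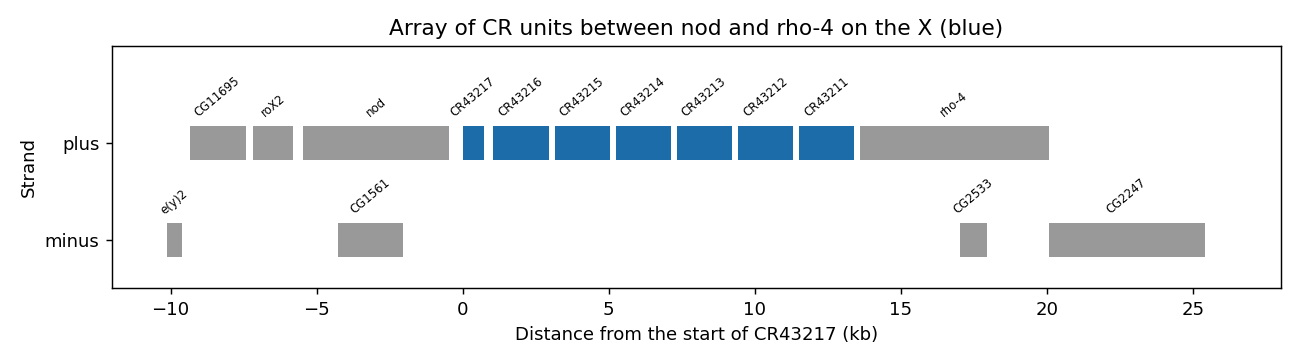
Units around the run of 7 CR pseudogenes on the X, drawn to scale by strand against distance in kb from the start of CR43217, with members in blue and other units in grey. The 6 units from CR43216 to CR43211 have the same length of 1891 bp and the same spacing of 2093 bp, and roX2 and nod lie to their left.

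The other run of 7 members differed in make-up. It lay on 2L from 4228921 to 4257295 and held CR44608, CR45720, CR44058, CR44059, CR45294, CR45295 and CR45296, all long non-coding RNAs, on both strands and from 366 bp (CR45294) to 3468 bp (CR44059) long. Over all arms, 671 members had no other member next to them and 667 stood in 268 runs of 2 or more, of which 182 were pairs. Runs of 6 were found at CR45334 on 2L and at CR44628 on 2R.

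Members stood farther from other units than protein-coding units did. The distance to the nearest unit on either strand had a median of 711.5 bp (interquartile range 205.5 to 2777.75), against 234 bp (93 to 622.5) for protein-coding units without overlap. It exceeded 500 bp for 771 members (57.6%) and for 29.5% of the protein-coding units. The nearest unit on the same strand lay at a median of 2438 bp, the nearest on the other strand at 2753 bp and the nearest with a protein-coding gene at 1814 bp, compared with 739, 667 and 257 bp for the protein-coding units. Among arms the median distance was lowest on the X (525 bp), followed by 2R (599 bp) and 2L (615 bp), and highest on 3L (1161.5 bp). The X value includes the local pseudogene series described above, many of whose units lay 50 to 202 bp from another unit. The X median without these series was not computed.

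Members made up a large part of the isolated units. Of 253 units on the 6 arms at least 10 kb from any other, 84 (33.2%) were members, while members formed 8.44% of all units, which include units that overlap another and so cannot stand this far. Protein-coding units without overlap numbered 154 (60.9%). At 50 kb or more there were 26 units, of which 6 were members and 18 (69.2%) were protein-coding units without overlap. Of the 6 members, 5 were pseudogenes. All 6 lay where units of any kind were few. These stretches held 4 units at 2 to 3 Mb and 9 at 3 to 4 Mb of 2R, and 10 at 23 to 24 Mb of 2L. The most remote member was the pseudogene CR40100 (FBgn0058100, 2R:2374631-2375134, 504 bp), 112515 bp from CG17684. Next came CR41519 (2L:23415916-23416153, 238 bp), a pseudogene 91723 bp from CR42530 and the last unit of 2L, and CR46253 (2L:23239253-23240411, 1159 bp), a long non-coding RNA 64768 bp from CG12567.

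The nearest unit held a protein-coding gene for 836 members (62.5%), at a median of 773.5 bp, and was a CR unit for 455 (34.0%), at 601 bp. For protein-coding units without overlap these shares were 88.7% and 9.65%. Where the nearest unit was a CR unit it lay on the same strand in 268 of 455 cases (58.9%), and where it was protein-coding in 415 of 836 (49.6%).

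A facing start was counted when a unit on the other strand started 0 to 500 bp upstream of a member and pointed away from it. This held for 191 members (14.3%), for 1954 protein-coding units without overlap (26.6%) and for 82 of the removed CR units (9.01%). The removed units had an overlapping partner on the other strand by choice, so their share is not a like measure. By arm the share ran from 11.2% on the X (21 of 187) through 12.2% on 3R (32 of 263), 12.6% on 3L (35 of 278) and 14.7% on 2L (57 of 389) to 21.1% on 2R (44 of 209), with 2 of 12 on chromosome 4. The corresponding share of protein-coding units was 27.0% on the X and 26.7% on the 4 large autosome arms.

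Proximity was lower for members on every side, not only at the start. An upstream neighbour on the other strand lay within 500 bp of 14.0% of members and 26.1% of protein-coding units, and one on the same strand of 12.6% and 21.8%. Downstream, a same-strand neighbour lay within 500 bp of 14.1% against 27.6%, and an end-to-end neighbour of 11.0% against 29.0%. At any distance, 405 members (30.3%) had neighbours of their own strand on both sides, compared with 26.8% of protein-coding units. In 353 the upstream neighbour pointed away and the downstream one ran the same way, 327 had an opposite-strand neighbour on both sides, and in 251 only the downstream neighbour was on the other strand. The remaining 2 lay at the end of an arm.

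**Figure D4:**
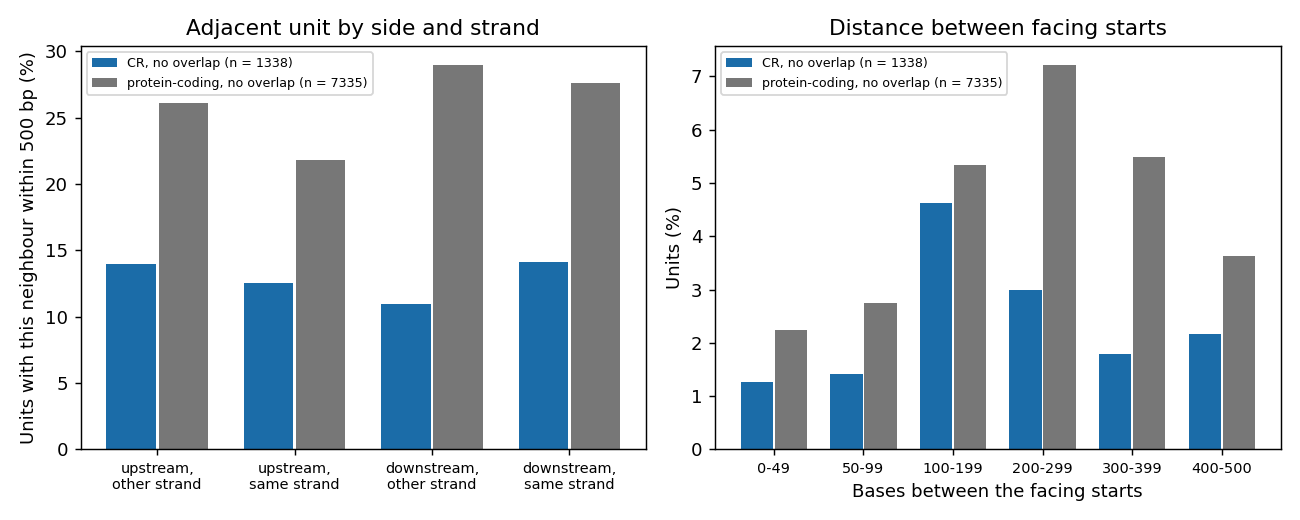
Percentage of CR and of protein-coding units without overlap that have an adjacent unit within 500 bp, by side and strand (left), and percentage with a facing start at each distance in bp (right). All 4 kinds of neighbour are less frequent for CR units, and the commonest facing distance is 100 to 199 bp for CR units and 200 to 299 bp for protein-coding units.

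The partners of the 191 facing members were protein-coding in 132 cases (69.1%), CR units in 52 (27.2%) and other non-coding units in 7. Starts were 170.5 bp apart at the median with a protein-coding partner and 244.5 bp with a CR partner. The bin of 100 to 199 bp held 62 members (4.63%), the most of any bin, whereas protein-coding units were most frequent at 200 to 299 bp (7.21%, against 2.99% of members). Of the 191 members, 145 were shorter than their partner. The partner was itself a member for 45, which formed 22 pairs of members and 1 further case. In 4 cases the partner was not the immediate upstream neighbour, because another unit came closer to the start of the member.

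The closest pairs left no room between starts. CR43983 on 2R (1000 bp, minus strand) and CG43982 had 0 bp between them. CR45401 (FBgn0266950, 3L:125009-125420, minus strand, 412 bp) and CR45402 (FBgn0266951, 3L:125421-125833, plus strand, 413 bp) also met at 0 bp, and both were members of nearly equal length. CR46040 (3R:19921313-19921671, plus strand, 359 bp) started 2 bp from a merged unit of CR43282 and the hairpin RNA gene hpRNA:1. CR44198 (2L:13118872-13119288, minus strand, 417 bp) started 5 bp from CG43050 and is listed as protein-coding CG44198 in RefSeq. CR45473 on the X (X:140973-142197, minus strand, 1225 bp, 3 transcripts) faced tyn, which encodes a zona pellucida domain protein of the cuticle, at 10 bp. CR46247 (X:4062859-4064506, 1648 bp), with 3 transcripts as well, had its nearest unit 11471 bp away.

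A few facing partners were developmental regulators. CR45610 (X:20690320-20690633, minus strand, 314 bp) started 36 bp from run, an X-linked pair-rule gene that also counts X chromosomes in sex determination. On 2L, CR44905 (2L:19108785-19109883, 1099 bp) faced Lim3, a LIM homeobox gene of motor neurons, at 357 bp, and CR44912 (2L:2427050-2427881, 832 bp) faced dpp, which encodes a BMP ligand, at 490 bp. Of 85 genes in 6 lists of dosage compensation, Hox, other homeobox, gap and pair-rule, neural and signal genes, 34 (40.0%) lay in a unit next to a member on either side. The same held for 1684 of 13845 protein-coding genes of the 6 arms (12.2%). There were 37 members next to the listed genes. Over pairs of a member and a listed gene the median distance was 9539 bp, compared with 2189 bp for all protein-coding neighbours. Among these 37, only CR45610, CR44905 and CR44912 faced the start of a listed gene within 500 bp. The lists are small and were picked by name, with earlier results of these data known. They also hold the non-coding roX1 and roX2, whereas the 12.2% covers protein-coding genes alone.

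By list, a member was next to 13 of 27 other homeobox genes, 7 of 13 gap and pair-rule genes, 6 of 14 signal genes, 5 of 15 proneural and neural genes, 2 of 8 Hox genes and 1 of 8 dosage compensation genes. That single case was CR44809 (FBgn0266044, 2L:22169668-22170204, plus strand, 537 bp), whose start faced that of Clamp at 524 bp, just past the limit of 500 bp. Clamp encodes a zinc finger protein that binds GA repeats and helps bring the dosage compensation complex to the X. No member was next to mof, the gene depleted in these embryos.

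In the Antennapedia complex, the cluster of Hox genes on 3R, members flanked both ends of Antp, which specifies thoracic segments. CR44932 (FBgn0266237, 3R:6895178-6896128, minus strand, 951 bp) began 124 bp after the end of the Antp unit on the same strand, and CR45899 (FBgn0267559, 3R:7000492-7001423, plus strand, 932 bp) faced its start at 1263 bp. CR45900 (FBgn0267560, 3R:6858839-6859192, minus strand, 354 bp) lay between ftz, a pair-rule homeobox gene whose start faced it at 5131 bp, and the unit of Scr, a Hox gene of the labial and first thoracic segments, 8857 bp downstream. CR44931 (3R:6877678-6885278, minus strand, 7601 bp) lay on the other side of ftz, end to end at 11433 bp.

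Other members separated related genes. CR44089 (3R:21436351-21436701, 351 bp) lay between the ladybird homeobox genes lbe at 4875 bp and lbl at 2217 bp. On the X, CR15061 (X:18292380-18293059, 680 bp) stood between upd3 at 7783 bp and upd1 at 12294 bp, which encode ligands of the JAK/STAT pathway. CR43491 (X:17378376-17379004, 629 bp) stood between the Bar homeobox genes B-H1 at 18473 bp and B-H2 at 54200 bp.

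Neighbours other than facing starts came as close. The members CR44598 (2L:12570672-12571157, 486 bp) and CR44597, both long non-coding RNAs on the minus strand of 2L, had 2 bp between them. Among protein-coding neighbours, CR43734 (2L:9251138-9251459, 322 bp) started 12 bp after borr, which encodes a subunit of the chromosomal passenger complex, on the same strand. Downstream on the same strand, CR43199 (X:7450383-7452199, 1817 bp) ended 9 bp before CG11368. End to end, CR45200 on chromosome 4 (672 bp) met bt, which encodes the giant muscle protein projectin, at 0 bp. CR44274 (2R:8943495-8944295, 801 bp) ended 2 bp from CG8230, and CR10991 (3R:5848953-5849688, 736 bp) ended 8 bp from disp, which is needed for release of Hedgehog.

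Class and length varied with the number in the CR symbol, which FlyBase assigns as genes are annotated, though not in a steady order. Of the 67 members numbered below 40000, 47 (70.1%) were pseudogenes and the median length was 886 bp. In the 44000s and 45000s, which held 495 and 435 members, pseudogenes were 1.62% and 2.76% and the medians were 638 and 530 bp. The 210 members in the 43000s lay between, with 19.5% pseudogenes and 690 bp, and the 78 numbered 46000 and above were higher again than the 45000s, with 10.3% and 713 bp. Members numbered from 40000 and below 43000 were the most isolated, with 13 of 53 (24.5%) at least 10 kb from any unit.

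Many unit ends on 2R fell on a grid of 50 bp. Lengths equal to a multiple of 50 plus 1, which 1 of 50 remainders (2%) would hold if lengths were spread evenly, were found for 74 of 209 members on 2R (35.4%) and 30 of 263 on 3R (11.4%). On the X, 2L and 3L they were 2.14%, 2.83% and 2.16%. On chromosome 4 they were 3 of 12 members (25.0%) and 2 of 15 removed CR units (13.3%), and both ends of the 3 members left a remainder of 24 when divided by 50. Among protein-coding units without overlap the share was 3.05% on 2R, and among the removed CR units of 2R it was 17.2%. The positions themselves shared an ending: on 2R, 67 starts and 75 ends finished in 95, a further 11 and 16 finished in 45, and 62 members (29.7%) had both ends there. On 3R the endings were 78, with 27 starts and 27 ends, and 28, and both ends of 19 members fell on them.

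The run of 6 members from CR44628 on 2R shows the pattern. CR44628 extended from 20007095 to 20007645, CR44629 from 20014495 to 20014695, CR44630 from 20016495 to 20017095 and CR44631 from 20058095 to 20058795. CR44633 extended from 20090795 to 20091295, and CR44632 ended on the grid at 20086695 but started off it at 20084960. Of the 62 members on the grid at both ends, 60 carried numbers in the 44000s, out of 125 such members on 2R, and 60 were classed as long non-coding RNAs. Their median length was 601 bp, their median distance to the nearest unit 745 bp and their share with a facing start 16.1% (10 of 62), against 700 bp, 546 bp and 23.1% (34 of 147) for the other members of 2R. The commonest lengths of all members were 501 bp, with 12 members of which 10 lay on 2R, and 601 bp, with 11. How these ends were set was not tested.

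**Figure D5:**
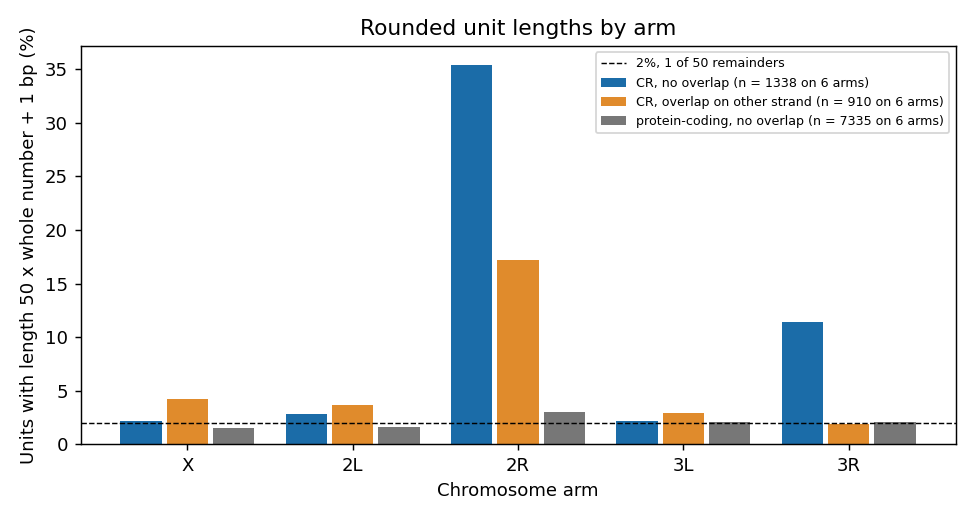
Percentage of units whose length is a multiple of 50 plus 1 bp, by arm, for CR units without overlap, CR units with overlap and protein-coding units without overlap; the dashed line marks 2%, the share of 1 in 50 remainders. Members reach 35.4% on 2R and 11.4% on 3R and stay near the line on the X, 2L and 3L; chromosome 4, with 3 of 12 members, is not drawn.

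A few members have since been renamed in RefSeq. The 7 now classed as protein-coding included CR44404 (2R:17671068-17671295, plus strand, 228 bp), now IBIN, a short peptide gene named for its induction by infection, which lay 13 bp from P32. Another was CR44666 (2R:20780295-20780695, 401 bp), now CG44666, whose RefSeq gene of 3225 bp is longer than the deposited unit. CR43432 (3L:14976626-14977631, 1006 bp) is now lncRNA:marge, 585 bp from Ocho, and CR45923 (2R:4621118-4622481, 1364 bp) is lncRNA:dntRL. CR45484 on the X measured 3736 bp here and 9950 bp as lncRNA:CR46499 in RefSeq. The 4 genes without a RefSeq match were CR45459, CR45460 and CR45368 on 2L and CR45557 on 3R (3R:32015941-32026928, 10988 bp), which faced heph, an RNA-binding protein gene, at 420 bp.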

How the data were processed

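The study measured nascent RNA on polymerase by mNET-seq in 37 samples. The submitters' processing notes name build dm6, STAR 2.7.4a, cutadapt 2.8, DESeq2, DESeq and SAMtools 1.20, without settings. The values used were positions and lengths in bp from the authors' deposited unit annotation, which per the file headers is a GFF version 2 export of rtracklayer 1.48.0. Its coordinates are 1-based, and how genes were merged is not given there.

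Distance was the number of bases between a unit and the nearest on either strand. A facing start was an opposite-strand start 0 to 500 bp upstream. Overlap needed 1 bp. A run was a series of members with no other unit between them. Density used the end of the last unit of an arm. RefSeq classes (assembly Release 6 plus ISO1 MT) were matched by symbol, locus tag or a synonym fitting 1 gene of that chromosome. Members and gene lists were chosen with earlier results of these data known. Named members were the 3 longest, 3 shortest, 3 most remote and 3 with the most transcripts (17 tied at 3 transcripts, ordered by arm and start), the longest of each arm, the 5 closest facing starts, neighbours of dosage compensation and Hox genes, and the longest run. Others named at the overlap limit, next to listed genes, close on other sides, on the grid or renamed in RefSeq were chosen after their values were seen. Distances, facing starts and overlaps were checked against plain loops on simulated data: 20 sets of 300 units gave 36000 values with 0 mismatches. Alternatives changed the overlap rule, class, arms, length, neighbours and distance limits. Promoter sequence and motifs were not analysed here. Scripts ran in Python 3.11.15 with matplotlib 3.10.9, scipy 1.17.1 and numpy 2.4.6.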

Additional observations from a re-analysis of the deposited data

How the results depend on the processing

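The number of members, 1338, was 1442 when units were removed only for an overlap of at least 50% of the shorter unit, and 1029 when any other-strand unit within 500 bp removed them. No symbol of another CR form was found. The median length stayed between 625 and 651 bp for members of RefSeq class lncRNA alone, without chromosome 4, on the X or the autosome arms alone, at 200 bp or longer and without the members of 2R and 3R that have both ends on the 50 bp grid, an alternative chosen after seeing the data. The median distance of 711.5 bp became 525 bp on the X alone, 1814 bp to the nearest unit with a protein-coding gene, 2438 bp on the same strand alone and 2753 bp on the other strand alone. The share with a facing start, 14.3%, became 11.2% on the X alone, 9.34% within 250 bp, 21.5% within 1000 bp and 9.87% with protein-coding partners alone. Elsewhere the distance lay between 697.5 and 796.5 bp and the share between 14.2% and 14.7%. No paired analysis was possible because the annotation holds no value per sample. Promoter GC content and motifs were not run. Annotated starts, with ends on a 50 bp grid on 2R, limit the precision of short facing distances.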
